A study of Mus musculus with 8 samples.

Results

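The genes described here encode the troponins and tropomyosins, the regulatory proteins of the thin filament of muscle. They were chosen by name, as 10 genes of 49315 in the deposited count table. These are the cardiac troponin genes Tnnt2, Tnni3 and Tnnc1, the skeletal troponin genes Tnni1, Tnnt1 and Tnnt3, and the tropomyosin genes Tpm1, Tpm2, Tpm3 and Tpm4. RNA sequencing had been applied to 8 libraries of heart from C57BL/6 mice, a standard inbred strain, 8 weeks old, 4 libraries from females and 4 from males. No treatment or transgene is given in the labels for either sex. The labels also state neither that each library was from its own animal nor which chambers the dissected hearts included, so the p-values measure the spread between these libraries, which may be technical.

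In striated muscle the thin filament is built on actin, along which tropomyosin dimers lie end to end, with a troponin complex on each. Troponin C binds calcium, troponin I holds actin and myosin apart at rest, and troponin T ties the complex to tropomyosin. Each troponin subunit has cardiac, slow skeletal or fast skeletal gene copies, and the heart exchanges the slow skeletal troponin I of the fetus for the cardiac form around birth. Tropomyosin genes are also spliced into forms that serve the cytoskeleton of non-muscle cells.

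Total counts were 32746054 to 35467832 in females and 39612848 to 47097765 in males. Males were thus the deeper group. On these totals 1 count was worth 0.0212 to 0.0305 CPM, the count scaled to a fixed library size. The CPM values below, unless said otherwise, use library sizes adjusted by TMM. The 9 cardiomyocyte markers listed for this tissue were all detected, at 82629 to 92599 CPM summed. Some libraries stood apart. In male replicate 4 the 7 atrial markers summed to 515 CPM against 2458 to 2959 in the other 7 libraries, and in male replicate 1 the 9 leukocyte markers summed to 182 CPM against 57.7 to 85.3. In female replicate 2 the 8 red cell and platelet markers, all detected, summed to 575 CPM against 2537 to 8840 in the others. Marker sums for fibroblasts were 1287 to 1351 CPM in females and 1072 to 1221 CPM in males, and those for white adipocytes 69.8 to 129 and 13.1 to 39.3 CPM, without overlap between the sexes for either list. Of single genes tested, 12% also had female and male values that did not overlap. In whole-tissue RNA, fewer cells of a type and less RNA per cell cannot be told apart.

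All 10 genes were detected in all 8 libraries and passed the filter on low counts. Together they took 2.66% to 2.95% of all counts of a library, with 99.24% to 99.33% of that held by Tnnt2, Tnni3, Tnnc1 and Tpm1. Tpm1 and Tnnt2 stood at positions 8 and 9 among the genes tested when ordered by CPM, Tnni3 at 19 and Tnnc1 at 29. At the other end, Tnnt3 and Tnni1 were at positions 14265 and 14450 of 16180.

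No troponin or tropomyosin gene passed the test between females and males: 0 of 10 had an edgeR p below 0.05 after adjustment over the 16180 genes tested. Of those 16180 genes 3.79% were called, 2.03% with the higher mean in males and 1.76% with the higher mean in females. The count among the 10 was also 0 by DESeq2, which called 3.14% of its genes, and by limma-voom, which called 3.8%. The DESeq2 share is of 30510 genes, with those of low count included, and is not directly comparable with the other shares. By edgeR 2 of the 10 had an unadjusted p below 0.05, against 19.5% of all genes. In none of the 10 were the female and male values free of overlap, while 12% of all genes tested had groups that did not overlap. The median log2 fold change, male minus female, was -0.02 over the 10 genes and -0.00074 over all genes tested, with 6 of the 10 below 0 and 4 above.

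**Figure D1:**
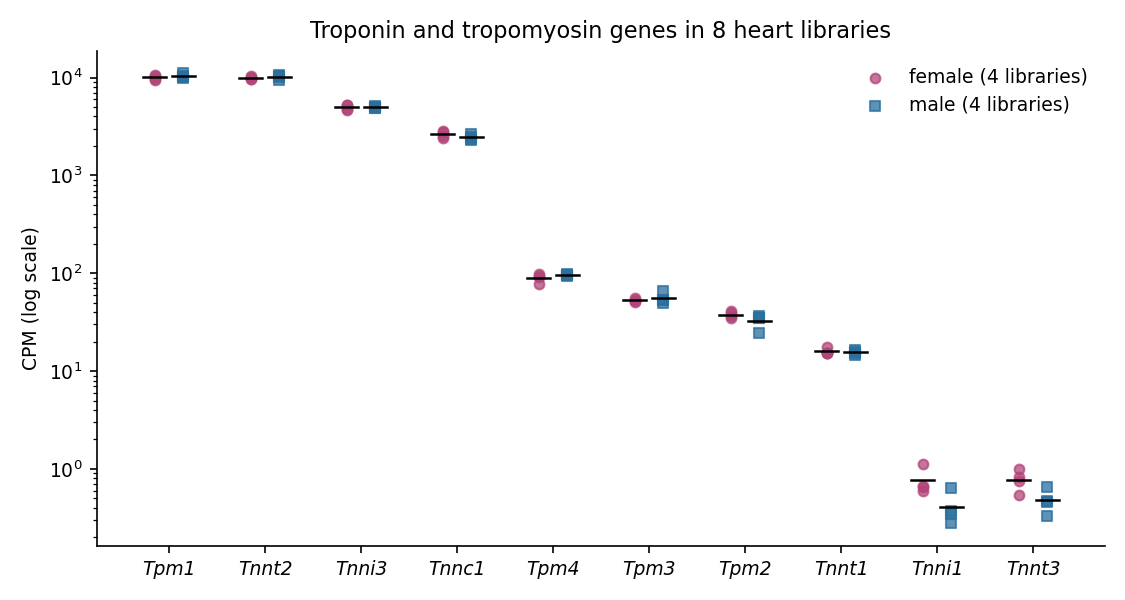
CPM on a log scale of the 10 troponin and tropomyosin genes in 4 female (circles) and 4 male (squares) heart libraries, with a bar at the mean of each sex. Tpm1, Tnnt2, Tnni3 and Tnnc1 lie at 2318 CPM or more in every library, Tpm4, Tpm3, Tpm2 and Tnnt1 between 14.6 and 98.5 CPM, and Tnni1 and Tnnt3 near or below 1 CPM. The values of the sexes overlap for every gene.

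Tnnt2 encodes cardiac troponin T and lies at chr1:135836354-135852260 on the plus strand of GRCm38. In the female libraries it was at 10124, 9770, 9647 and 10373 CPM (9978 ± 332, SD, n = 4), and in the male libraries at 10743, 9513, 10451 and 10079 CPM (10196 ± 531, n = 4). The highest and the lowest value were both male, so the groups overlapped over the whole female range. Its log2 fold change was 0.03 (SE 0.04, edgeR adjusted p = 0.74), and the 95% interval of the male to female ratio ran from 0.959 to 1.089.

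Tnni3 encodes cardiac troponin I, whose long N-terminal arm is phosphorylated by protein kinase A, and lies at chr7:4518305-4524229 on the minus strand. Its levels were 5218, 4704, 4801 and 5189 CPM in females (4978 ± 264) and 4916, 4841, 5075 and 4992 CPM in males (4956 ± 100). Every male value fell within the female range. The log2 fold change was -0.0064 (SE 0.041, edgeR adjusted p = 0.96), with the ratio between 0.936 and 1.059 at 95%. Its exons share 86 bases (4.17% of their length) on the same strand with those of Dnaaf3, which had 377 to 544 counts per library.

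Tnnc1 encodes the troponin C that cardiac and slow skeletal muscle share, and lies at chr14:31208312-31211729 on the plus strand. Females gave 2849, 2383, 2523 and 2753 CPM (2627 ± 212) and males 2496, 2318, 2667 and 2365 CPM (2462 ± 157). The 2 highest values were female and the 2 lowest male, with the other 4 interleaved. Of the 4 abundant genes it had the ratio farthest from 1, 0.937 (95% interval 0.854 to 1.028, edgeR adjusted p = 0.44).

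The counts of the 3 cardiac troponin genes varied little relative to each other. The counts of Tnnt2 were 194% to 219% of those of Tnni3 over the 8 libraries (coefficient of variation, CV, 3.76%), and those of Tnnc1 were 47.4% to 54.6% (CV 4.94%). The counts of Tpm1 were 93.7% to 106% of those of Tnnt2 (CV 4.25%). These ratios are of counts not divided by length, so they describe how steady the proportions were and not which transcript was more abundant.

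Because these 3 genes stood together near the top of the expressed genes, the sequences just before their RefSeq start sites are given, with that of Tnni1 beside them as a troponin gene at the bottom of the range. RefSeq (GRCm38.p6) gave a start site for 9 of the 10 genes. The stretches shown are those before the start site that lie outside every exon of the deposited annotation: chr1:135836084-135836333 (plus strand) for Tnnt2, chr7:4522529-4522694 (minus) for Tnni3, chr14:31208062-31208311 (plus) for Tnnc1 and chr1:135799171-135799401 (plus) for Tnni1. Those of Tnni3 and Tnni1 lie within the span of the deposited gene, which starts farther upstream. Capitals mark matches, on either strand, to the MCAT motif CATTCC bound by TEAD factors, the GATA motif AGATAA, the E-box CANNTG and the TATA motif TATAAA.
Tnnt2: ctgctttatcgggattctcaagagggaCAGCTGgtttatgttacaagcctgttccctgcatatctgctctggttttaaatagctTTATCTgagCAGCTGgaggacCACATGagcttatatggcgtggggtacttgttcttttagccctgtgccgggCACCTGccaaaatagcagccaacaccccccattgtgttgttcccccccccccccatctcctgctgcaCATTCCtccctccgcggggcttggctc
Tnni3: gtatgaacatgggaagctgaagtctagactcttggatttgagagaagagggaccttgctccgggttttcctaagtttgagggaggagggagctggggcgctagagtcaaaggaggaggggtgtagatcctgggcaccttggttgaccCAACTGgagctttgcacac
Tnnc1: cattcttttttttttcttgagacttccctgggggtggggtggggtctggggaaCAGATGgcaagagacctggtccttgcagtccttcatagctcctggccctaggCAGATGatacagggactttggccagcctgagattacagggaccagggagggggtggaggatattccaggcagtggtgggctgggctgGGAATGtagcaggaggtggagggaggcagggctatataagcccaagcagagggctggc
Tnni1: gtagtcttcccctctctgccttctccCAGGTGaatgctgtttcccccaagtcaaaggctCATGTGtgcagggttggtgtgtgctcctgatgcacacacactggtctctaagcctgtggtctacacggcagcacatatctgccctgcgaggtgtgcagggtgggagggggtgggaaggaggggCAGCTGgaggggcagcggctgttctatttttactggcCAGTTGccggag

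Among these sequences Tnnt2 and Tnnc1 held an MCAT match, Tnnt2 at -27 to -22 from the start site and Tnnc1 at -58 to -53 on the opposite strand. Tpm1, whose window overlaps annotated exons and is not shown, had a further MCAT match at -56 to -51 on the opposite strand. An MCAT match occurred in 12.6% of 32851 windows of 250 bases before RefSeq start sites. Tnnt2 also had a GATA match on the opposite strand at -166 to -161, as 9.99% of all windows had one on either strand, and Tpm3 had one at -32 to -27. TATAAA was found before Tnnt1 only, at -30 to -25, and in 12.4% of all windows. E-box matches numbered 4 for Tnnt2, 4 for Tnni1, 2 for Tnnc1, 1 each for Tnni3, Tnnt1, Tpm1, Tpm2 and Tpm3, and 0 for Tpm4, with at least 1 in 66.2% of all windows. No match of the CArG or MEF2 motif was found before any of the 9 genes (1.47% and 2.92% of all windows). Such matches describe the letters of these windows and do not show binding.

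Tpm1, the main tropomyosin gene of the adult heart, lies at chr9:67022590-67049406 on the minus strand. It was at 10733, 9705, 9456 and 10351 CPM in females (10061 ± 586) and 10067, 9836, 11068 and 10483 CPM in males (10364 ± 540). The lowest 2 values were female and the highest was male, with the groups overlapping between them. Its log2 fold change was 0.04 (SE 0.05, edgeR adjusted p = 0.68), and the ratio lay between 0.957 and 1.109 at 95%.

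Tpm2 (chr4:43514711-43523765, minus strand) encodes beta-tropomyosin, which is prominent in skeletal and smooth muscle. Female values were 36.4, 35.0, 41.0 and 39.1 CPM (37.9 ± 2.70) and male values 34.5, 34.5, 36.3 and 24.5 CPM (32.5 ± 5.35). Male replicate 4 was alone at the low end, at 71.1% of the next lowest library, and the other 3 males lay at or just below the lower part of the female range. The log2 fold change was -0.22 (SE 0.10, unadjusted p = 0.054, edgeR adjusted p = 0.27), and without male replicate 4 it was -0.11.

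Male replicate 4 was also the library with few atrial transcripts. All 7 atrial markers were detected there, but Sln was at 30.6 CPM against 128 to 155 in the other libraries, Myl7 at 89.5 against 380 to 493, and Nppa at 186 against 1135 to 1343. The counts of Tpm2 were 7.21% to 9.09% of those of Myl7, the atrial light chain, in 7 libraries and 27.4% in male replicate 4, so Tpm2 was lower there by much less than the atrial markers. The 12 smooth muscle and pericyte markers, all detected, summed to 1437 to 1579 CPM in females and 1440 to 1540 CPM in males, with male replicate 4 inside that range at 1529 CPM. The 5 ventricular markers, all detected, summed to 14463 to 16194 CPM over the 8 libraries and to 16004 CPM in male replicate 4. The part of these markers in the Tpm2 value was not tested.

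Tpm3 (chr3:90072649-90100902, plus strand) is expressed in slow skeletal fibres and, as cytoskeletal forms, in many cell types. It was at 52.0, 55.2, 50.7 and 53.7 CPM in females (52.9 ± 1.95) and 66.0, 53.1, 50.1 and 53.5 CPM in males (55.7 ± 7.06). Male replicate 1 was above all others, at 119.6% of the next highest, and the other 3 males lay within or just below the female range. The log2 fold change was 0.07 (SE 0.07, edgeR adjusted p = 0.64) and turned to -0.019 without male replicate 1.

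Male replicate 1 was the library rich in leukocyte transcripts. The 9 leukocyte markers were all detected, with Coro1a at 38.3 CPM there against 11.8 to 16.5 elsewhere and Rac2 at 28.3 against 3.11 to 6.27, and the 7 macrophage markers summed to 706 CPM against 321 to 418. Their part in the Tpm3 value was not tested. A relative of Tpm3 annotated on chromosome 14, Tpm3-rs7, had 4 to 20 counts per library beside 1723 to 2721 for Tpm3, and Tpm3-rs2 had 0 in every library. How reads that match more than 1 of these copies were assigned is not given in the sources used here.

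**Figure D2:**
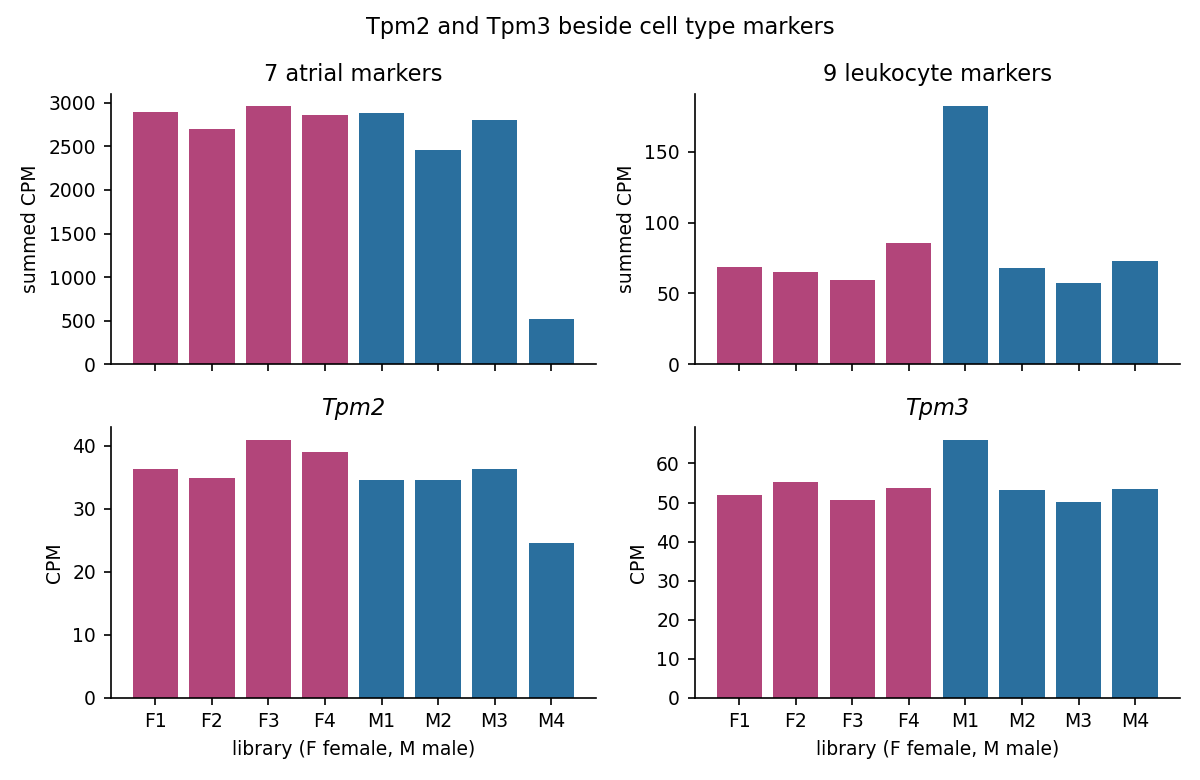
Upper panels, summed CPM of 7 atrial and 9 leukocyte markers; lower panels, CPM of Tpm2 and Tpm3; each bar is 1 library, female (F1 to F4) or male (M1 to M4), on axes that start at 0. Tpm2 and the atrial markers were both lowest in M4 (24.5 and 515 CPM), and Tpm3 and the leukocyte markers both highest in M1 (66.0 and 182 CPM).

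Tpm4 (chr8:72134975-72153142, plus strand), which encodes a cytoskeletal tropomyosin of non-muscle and smooth muscle cells, was at 92.1, 76.7, 93.2 and 97.4 CPM in females (89.9 ± 9.05) and 94.5, 98.5, 95.6 and 95.5 CPM in males (96.0 ± 1.70). Female replicate 2 was the lowest, at 83.3% of the next library, and the male values were the tightest of any of the 10 genes (CV 1.77%). Its log2 fold change was 0.10 (SE 0.06, edgeR adjusted p = 0.43; ratio 0.973 to 1.174 at 95%), and without female replicate 2 it was 0.025 (adjusted p = 0.79). Female replicate 2 was also the library with the lowest red cell and platelet marker sum. In the other libraries that sum ran from 2537 to 8840 CPM, while Tpm4 was at 92.1 to 98.5 CPM. The part of these markers in the Tpm4 value was not tested. An antisense gene, Gm26586, shares 134 bases of exon with Tpm4 on the opposite strand and had 13 to 25 counts per library. The strand setting of the counting is not given in the sources used here, so reads in those bases cannot be told apart.

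The slow skeletal troponin T gene Tnnt1 (chr7:4504570-4516382, minus strand) was measured with 518 to 694 counts per library. It was at 17.6, 15.2, 15.3 and 15.5 CPM in females (15.9 ± 1.14) and 15.6, 15.4, 16.3 and 14.6 CPM in males (15.5 ± 0.667). Apart from female replicate 1 at the top, the values of the sexes were interleaved. Its log2 fold change was -0.03 (SE 0.06, edgeR adjusted p = 0.81) with the ratio between 0.889 and 1.072 at 95%, and it was 0.017 without female replicate 1.

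Tnnt1 lies next to Tnni3 on chromosome 7. The genes are on the same strand, with 1922 bases between the end of Tnni3 and the start of Tnnt1 in the direction of transcription. Counts of Tnnt1 were 0.293% to 0.337% of those of Tnni3 in every library (0.316% ± 0.0139, SD over 8, CV 4.40%), and 0.145% to 0.174% of those of Tnnt2 (CV 6.12%). Whether reads that run on past the end of Tnni3 enter the Tnnt1 count was not tested. Tnni1 and Tnnt3 also have a troponin gene nearby: Tnni1 ends 25364 bases before Tnnt2 on chromosome 1, and Tnni2, the fast skeletal troponin I gene, ends 54425 bases before Tnnt3 on chromosome 7, in each case on the same strand.

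Tnni1 encodes slow skeletal troponin I, the form of the fetal heart, and lies at chr1:135779434-135810989 on the plus strand. It was at 0.664, 0.658, 1.13 and 0.597 CPM in females (0.762 ± 0.247) and 0.631, 0.279, 0.375 and 0.349 CPM in males (0.409 ± 0.154). These values rest on 20 to 41 counts per female library and 11 to 26 per male library. The 3 lowest libraries were male, while male replicate 1 lay within the female range. The log2 fold change was -0.90 (SE 0.30, ratio 0.535, 95% interval 0.341 to 0.840), with an unadjusted p of 0.0107 and an edgeR adjusted p of 0.12. Over the alternatives that gave a value the adjusted p was 0.057 to 0.289, so no call was made.

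Tnnt3 encodes fast skeletal troponin T and lies at chr7:142498836-142516009 on the plus strand. It was at 0.755, 0.987, 0.827 and 0.537 CPM in females (0.777 ± 0.187) and 0.655, 0.457, 0.469 and 0.327 CPM in males (0.477 ± 0.135), from 15 to 36 counts. The 3 highest libraries were female and the 3 lowest male, with female replicate 4 below male replicate 1. The log2 fold change was -0.71 (SE 0.26, ratio 0.611, 95% interval 0.414 to 0.899; unadjusted p = 0.0169, edgeR adjusted p = 0.15, 0.102 to 0.344 over the alternatives).

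Both genes thus had a lower mean in males without passing the test, and 9.39% of all genes tested had an unadjusted p below 0.05 with the higher mean in females. Counting error was wide at these depths. Summed over a sex, Tnni1 had 107 female counts (0.782 CPM before scaling, exact 95% Poisson interval 0.641 to 0.945) and 69 male counts (0.400, 0.311 to 0.506), and Tnnt3 had 109 (0.797, 0.654 to 0.961) and 80 (0.464, 0.368 to 0.577). For each of these genes the female and male intervals did not overlap. The intervals cover counting error only and not the spread between libraries. The dispersion fitted between libraries, as a biological coefficient of variation, was 0.218 for Tnni1 and 0.172 for Tnnt3 against a median of 0.0762 over all genes.

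The markers of white adipocytes (6 of 6 detected), brown adipocytes (4 of 4) and fibroblasts (8 of 8) had sums that were higher in every female library than in any male one, as given above for white adipocytes and fibroblasts and at 43.9 to 133 against 29.8 to 40.5 CPM for brown adipocytes. All 13 skeletal muscle fibre markers were detected and summed to 74.5 to 102 CPM in females and 74.1 to 114 CPM in males. Most of that sum was Myl1 (38.1 to 72.8 CPM) and Mybpc2 (23.4 to 31.9 CPM), while the adult fast myosin genes Myh1, Myh2 and Myh4 had 9, 14 and 42 counts over all 8 libraries. The part of other cell types in the Tnni1 and Tnnt3 values was not tested.

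**Figure D3:**
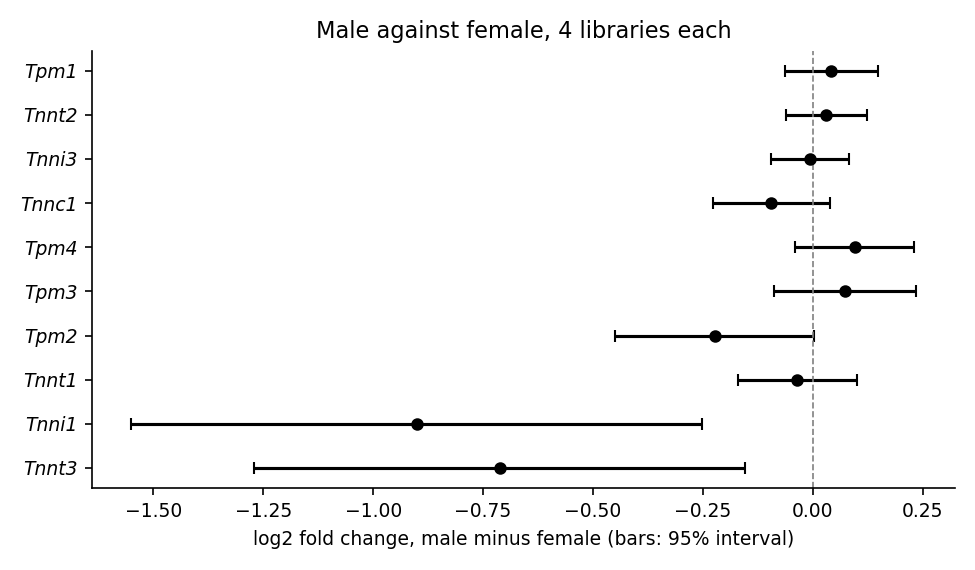
Log2 fold change, male minus female, of each gene from the edgeR fit over all genes, as a point with its 95% interval; the dashed line marks no difference. The intervals of Tpm1, Tnnt2, Tnni3 and Tnnc1 stay within -0.23 and 0.15, and those of Tnni1 and Tnnt3 are the widest and lie below 0, with adjusted p of 0.12 and 0.15.

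**Figure D4:**
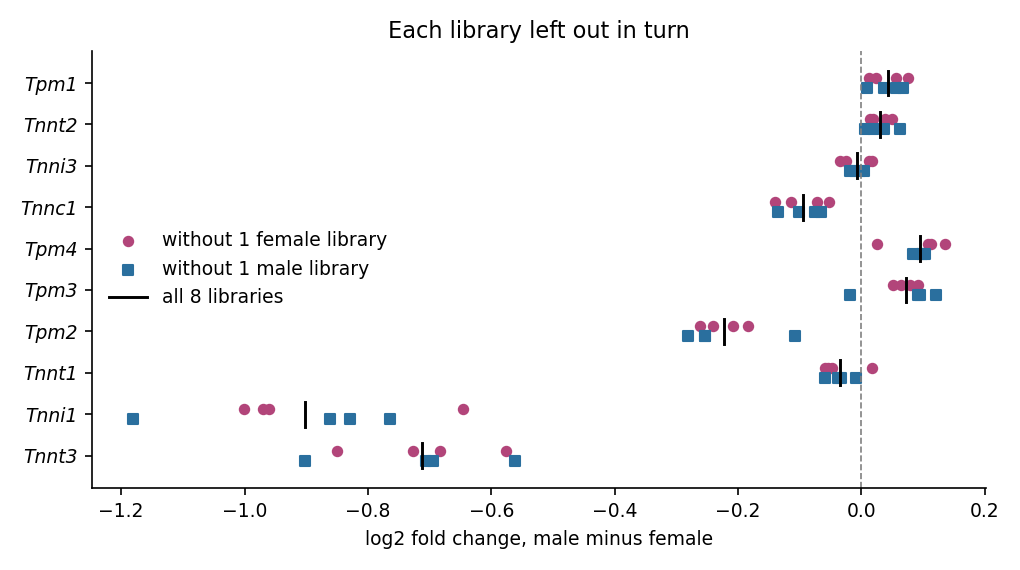
Log2 fold change, male minus female, of each gene with all 8 libraries (vertical bar) and with each library left out in turn (circles, a female library; squares, a male library). Tpm3 crosses to -0.019 without male replicate 1, Tpm2 moves to -0.11 without male replicate 4, and Tnni1 ranges from -1.18 to -0.65.

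Levels of different genes were compared per length, as CPM per kilobase of the exons summed over all transcripts of a gene in the deposited annotation. On that scale the order from high to low was Tnnc1 at 2444 ± 186 (SD over 8 libraries), Tnni3 at 2408 ± 89.7, Tpm1 at 1575 ± 84.2 and Tnnt2 at 1301 ± 54.9. Tnnc1 and Tnni3 overlapped (2227 to 2736 and 2280 to 2529), whereas Tpm1 lay below both and Tnnt2 below Tpm1 in every library. Next came Tpm4 at 42.2 ± 3.12, Tpm2 at 12.1 ± 1.67, Tpm3 at 8.93 ± 0.825 and Tnnt1 at 7.12 ± 0.403, of which Tpm2 and Tpm3 overlapped (8.44 to 14.1 and 8.23 to 10.9). Tnnt3 at 0.396 ± 0.139 and Tnni1 at 0.163 ± 0.0746 were lowest and overlapped (0.207 to 0.624 and 0.0775 to 0.314).

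The order among the abundant genes depended on the length used. The exons of Tnnt2 sum to 7752 bases, while the longest principal transcript in GENCODE release M21 has 1200. Per kilobase of the principal transcript, Tnnt2 was highest at 8406 ± 355, followed by Tnni3 at 5446 ± 203 and Tpm1 at 5381 ± 288, which overlapped (5158 to 5722 and 4982 to 5831), and by Tnnc1 at 3529 ± 269. Tnnc1 thus moved from the first to the last place among the 4. The position of Tpm3 (24.3 ± 2.25) also moved, to above Tpm2 (16.8 ± 2.32), which on that length overlapped Tnnt1 (15.3 ± 0.865). With either length the 4 abundant genes were above the others, Tpm4 came next, and Tnnt3 and Tnni1 came last. Which transcripts the libraries held was not measured in these counts.

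**Figure D5:**
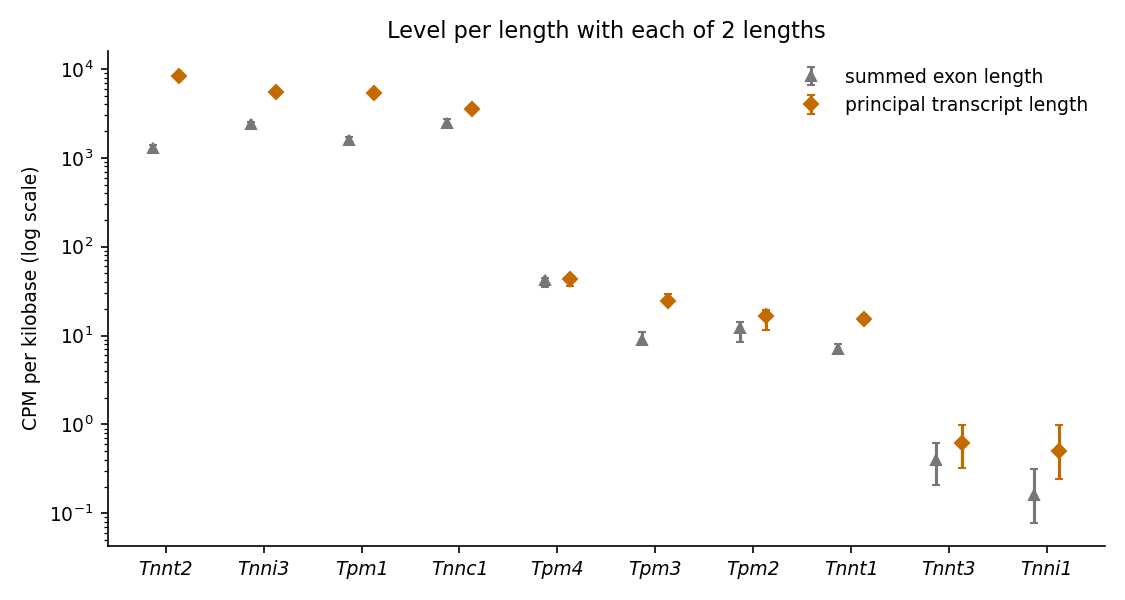
CPM per kilobase on a log scale, divided by the summed exon length (triangles) or by the longest principal transcript (diamonds), as the mean of 8 libraries with bars from the lowest to the highest library. Tnnt2 is at 1301 with the first length and at 8406 with the second, while Tpm4 is at 42.2 and 43.7.

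Within each subunit the cardiac copy made up nearly all of the per-length signal, on the summed exon length. Tnnt2 was 99.36% to 99.48% of troponin T, with Tnnt1 at 0.544% ± 0.0331 and Tnnt3 at 0.0304% ± 0.0112 (SD over 8). With principal transcript lengths Tnnt1 was 0.181% and Tnnt3 0.00743% of troponin T. Tnni3 was 99.89% to 99.93% of troponin I, with Tnni1 at 0.0068% ± 0.0032. Tnnc1 was at least 99.9955% of troponin C, since the fast skeletal gene Tnnc2 had 15 counts over all libraries.

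The other part of troponin I came from Tnni2, which is no member of the list and is named here after its values were seen. Its share was 0.0658% to 0.0693% in females and 0.0746% to 0.1055% in males, without overlap. The share rests on the same counts as the CPM of Tnni2, and 12% of all genes tested had CPM without overlap. The level of Tnni2 was 2.43 ± 0.168 CPM in females and 3.34 ± 0.486 CPM in males (log2 fold change 0.46, edgeR adjusted p = 0.073), which did not pass the test. Without male replicate 4 it passed (0.55, adjusted p = 0.037), the only one of the alternatives in which it did, with adjusted p up to 0.19 in the rest. More troponin I reads came from Tnni2 than from Tnni1 in every library.

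Tropomyosin was less one-sided. Tpm1 made up 95.75% to 96.40% of it per length, Tpm4 2.24% to 2.83%, Tpm2 0.503% to 0.925% and Tpm3 0.465% to 0.671%. The share of Tpm2 was 0.809% ± 0.0841 in females and 0.673% ± 0.115 in males, and it was lowest in male replicate 4 and highest in female replicate 3. Over the 8 libraries the share of Tpm2 was 0.741% ± 0.118 and that of Tpm3 0.547% ± 0.0617, so they overlapped. With principal transcript lengths the mean shares were 0.800% for Tpm4, 0.446% for Tpm3 and 0.308% for Tpm2, so that Tpm4 and Tpm2 had smaller shares and Tpm2 came after Tpm3.

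Of 25 genes that act with troponin and tropomyosin on the thin filament (actins, tropomodulins, leiomodins, capping proteins, the 2 fast skeletal troponin genes and others), 24 were tested, 2 were higher in males, 2 were higher in females and 20 did not pass, beside 3.79% called of all genes. Acta1, skeletal alpha-actin, was at 395, 239, 320 and 307 CPM in females and 421, 559, 618 and 432 CPM in males, so all males exceeded all females. Its log2 fold change was 0.69 (SE 0.15, edgeR adjusted p = 0.028). Tmod4, a tropomodulin that caps the pointed end of actin, was at 19.1 ± 1.43 CPM in females and 22.5 ± 0.986 CPM in males (0.24, SE 0.06, adjusted p = 0.048). Higher in females were Acta2, smooth muscle alpha-actin, at 158 ± 6.35 against 121 ± 17.7 CPM (-0.39, SE 0.09, adjusted p = 0.032), and Xirp1, an actin-binding protein of the intercalated disc, at 309 ± 10.3 against 276 ± 5.11 CPM (-0.16, SE 0.04, adjusted p = 0.032).

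These 4 calls were close to the threshold. With 1 library left out at a time, Acta1 was called in 3 of 8 fits (adjusted p up to 0.076, without male replicate 3), Acta2 in 2 (up to 0.083, without female replicate 3), Xirp1 in 2 (up to 0.083, without female replicate 1) and Tmod4 in 1 (up to 0.12, without female replicate 3). Without male replicates 1 and 4 together, Acta1 (log2 fold change 0.90) and Acta2 (-0.24, nearer to 0) passed the test. Tmod4 (0.20, edgeR adjusted p = 0.24) and Xirp1 (-0.16, adjusted p = 0.15) did not, with the value of Xirp1 nearly as before. Cardiac alpha-actin, Actc1, also among the thin filament partners, was at 9398 ± 680 CPM in females and 9386 ± 811 CPM in males. Its log2 fold change was -0.0019 (SE 0.064, edgeR adjusted p = 0.99), and Actc1 is named after its values were seen. Actin genes are near-identical in their coding parts, and the assignment of shared reads is not given in the sources used here.

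Of 20 kinases and phosphatases that act on troponin I, troponin T or tropomyosin, or their regulators, all were tested. By edgeR 0 of these were called, beside 3.79% of all genes, and their median log2 fold change was 0.04. Their summed level was 1857 to 1896 CPM in females and 1912 to 1937 CPM in males, without overlap. Of single genes tested, 12% had groups without overlap. The smallest p belonged to Prkg1, cGMP-dependent protein kinase, at 8.46 ± 0.696 CPM in females and 7.26 ± 0.0771 CPM in males (-0.22, SE 0.07, adjusted p = 0.13). A further list held 9 genes high in the heart before birth (Tnni1, actin and myosin genes, Tagln, and the natriuretic peptide genes Nppa and Nppb). Of these, Acta1 was higher in males, Acta2 was higher in females and 7 did not pass, beside 3.79% called of all genes. Acta1 and Acta2 are the same calls as those given above among the thin filament partners. The median log2 fold change of the 9 genes was -0.38. In this list 3 of the 9 (Nppa, Myl4 and Myl7) are also atrial markers that were low in male replicate 4.

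The genes whose log2 CPM varied most like each member were found over the 8 libraries after the mean of each sex was subtracted, among 9016 genes at a mean log2 CPM of 3 or more. The points share library, depth and scaling, and the values of r are descriptions only. Each is among the 2 highest of 9016 genes over 8 points, and such a search can yield a high r without any link. For Tpm3 the closest genes were Mpeg1 (Pearson r = 0.986) and Coro1a (0.978), the latter one of the leukocyte markers. For Tpm2 these were Gnao1 (0.984) and Rras (0.983). Mpeg1, a macrophage gene, was at 26.5 CPM in male replicate 1 against 11.1 to 15.4 in the others, and Gnao1 at 26.6 CPM in male replicate 4 against 32.2 to 36.1. In both cases the library that stood apart was the same as for the tropomyosin gene. This follows from choosing genes by a high r over these same libraries, and is no separate evidence of a link.

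For the cardiac genes the closest were Ctbp2 (0.955) and Sdhaf2 (0.943) for Tnnt2, Myl12a (0.987) and Suclg1 (0.975) for Tnni3, Psmg1 (0.986) and Tmed4 (0.979) for Tnnc1, and Gzmm (0.981) and Mapre2 (0.966) for Tpm1. Tpm4 was closest to Psmd5 (0.973) and Smarcc1 (0.973), and Tnnt1 to Cpxm1 (0.991) and Higd2a (0.985). For the genes with the fewest counts they were Synj1 (0.977) and Ankzf1 (0.972) for Tnni1, and Srsf9 (0.977) and Arhgap1 (0.960) for Tnnt3.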

How the data were processed

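RNA was taken from dissected hearts with Trizol and 1 ug of total RNA per library was prepared with a TruSeq RNA kit, per the labels' protocols. The authors deposited raw counts for 49315 genes, whose processing notes name Trimmomatic 0.36, STAR 2.5.2b, featureCounts of Subread 1.5.2 and GRCm38 (mm10). Annotation version, strand setting and treatment of multiply mapped reads are not given in the sources used here. The deposited normalized signal of 16160 genes equals the raw counts divided by 1 size factor per library (0.8635 to 1.196), found from the values (100% whole within 0.01), and was used in 1 alternative. Of the gene IDs, 48970 matched a symbol.

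Counts were filtered with filterByExpr (minimum 10, total 15; 16180 genes kept), scaled by TMM and tested, male minus female without covariates, with edgeR 4.0.16 (glmQLFit and glmQLFTest; R 4.3.3), with Benjamini-Hochberg adjustment over all genes and a threshold of 0.05. Each SE was the size of the log2 fold change over the square root of F, and intervals of ratios are at 95%. CPM refers to TMM-scaled library sizes; for log2 CPM the prior count was 2. The biological coefficient of variation common to all genes was 0.0814. Groups and replicate numbers come from the sample titles. Depth is the total count per library.

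The alternatives were the Wald test of DESeq2 1.42.0, limma-voom (limma 3.58.1), DESeq2 size factors, upper quartile scaling, no filter, 1 CPM in 4 libraries, a replicate block, each library left out, limma on log2 of the normalized signal plus 1, thinning to 32746054 counts and removal of mitochondrial genes. Leaving out male replicates 1 and 4 together and the use of principal transcript lengths (GENCODE M21) were chosen after seeing the data. The procedure was tested on simulated counts of 16180 genes, with 50 genes changed by each of 4 folds. It recovered 44% of 1.25-fold, 62% of 1.5-fold, 89.8% of 2-fold and 100% of 4-fold changes, so small differences were often missed. Of 157 calls 12 were false, and 0 calls were made when no gene was changed.

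The genes and lists were chosen with earlier results of these data known. From each list, up to 2 called genes in each direction with the smallest p are named, or, where none was called, the gene of smallest p, and for each troponin or tropomyosin gene the 2 genes most like it. Tnni2, Tnnc2, Actc1, Mpeg1 and Gnao1 values and single cell type markers were added after their values were seen.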

Additional observations from a re-analysis of the deposited data

Results flagged for a closer look

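In groups of 4, a library was looked at again where its distance to the nearest other value, divided by the range of the group, exceeded Dixon's 95% critical value. Of 32 groups examined, 3 held such a library, and chance gives about 1 in 20. Tnni1 was at 1.13 CPM in female replicate 3, with the other females at 0.597 to 0.664 CPM (0.874 of the range). Tnnt1 was at 17.6 CPM in female replicate 1, with the other females at 15.2 to 15.5 CPM (0.879 of the range). Tpm2 was at 24.5 CPM in male replicate 4, with the other males at 34.5 to 36.3 CPM (0.851 of the range).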

How the results depend on the processing

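None of the 10 genes was called under any of 19 alternatives. Tnni1 and Tnnt3 gave no value with the 1 CPM filter. Of all genes, 613 were called, 959 with DESeq2, which also tested more genes (30510), 917 with edgeR and no filter, 315 to 490 with 1 library left out (315 without male replicate 3, 354 without female replicate 2 and 379 without female replicate 3) and 217 without male replicates 1 and 4. Same-numbered libraries did not deviate together (r between -0.047 and 0.054), but this cannot exclude a small shared effect. The labels do not say that a number marks shared origin. With the numbers as a replicate block 427 genes were called. Of the 4 thin filament partners called, 1 was called with the block, 2 without male replicates 1 and 4, and 0 to 3 with 1 library left out. Of the 2 called genes of the list high before birth, it was 1 with the block and 0 to 2 with 1 left out. For both lists 0 was reached without female replicate 2, female replicate 3 or male replicate 3, and for the second also without female replicate 4. Small log2 fold changes turned sign: Tnnt2 to -0.0011 without male replicates 1 and 4, and Tpm3 to -0.038. With 1 library left out, Tnni3 ran from -0.035 to 0.017 (0.017, 0.013 and 0.0050 without female replicate 1, female replicate 4 and male replicate 2), Tnnt1 from -0.059 to 0.017 (without female replicate 1) and Tpm3 from -0.019 (without male replicate 1) to 0.12. The cause was not tested. Without division by length, shares were 0.0118% for Tnni1, 0.155% for Tnnt1, 0.00623% for Tnnt3, 0.340% for Tpm2 and 0.895% for Tpm4. With principal transcript lengths they were 0.181% for Tnnt1, 0.00743% for Tnnt3, 0.308% for Tpm2, 0.446% for Tpm3 and 0.800% for Tpm4. Levels per length relative to Tnnt2 then became 0.648 for Tnni3, 0.420 for Tnnc1, 0.640 for Tpm1, 0.00520 for Tpm4, 0.00289 for Tpm3, 0.00200 for Tpm2, 0.00182 for Tnnt1, 7.4e-05 for Tnnt3 and 6.1e-05 for Tnni1, as the length of each gene and that of Tnnt2 changed together. Tnni1 and Tnnt3 rest on 11 to 41 counts per library, and thinning to the smallest total gave -0.95 and -0.75 (edgeR adjusted p = 0.12 and 0.14).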
